A study of Mus musculus with 16 samples.

Results

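Open chromatin was examined over 9 genes of the MHC class I pathway, *H2-K1*, *H2-D1*, *B2m*, *Tap1*, *Tap2*, *Tapbp*, *Psmb8*, *Psmb9* and *Nlrc5*, in mouse thymocytes. The genes were chosen by their function, and every ATAC-seq peak within the gene body or 10 kb on either side was taken (mm10, GENCODE M21). These windows held 71 of the 150139 DN peaks, 59 of 107110 DP peaks, 69 of 115074 SP4 peaks and 76 of 104411 SP8 peaks. Overlapping peaks from different stages (1 bp or more) were joined into regions, which gave 93 regions in the windows out of 185978 in the whole series. The windows of *Psmb9*, *Tap1*, *Psmb8* and *Tap2* run into each other on chromosome 17, so the 9 windows form 6 blocks of 275145 bp in all, and 14 regions lay in the window of more than 1 gene. *H2-K1* spans chr17:33996017-34000347 on the minus strand, *H2-D1* chr17:35262730-35267499 and *Tapbp* chr17:33915899-33929292. The cluster runs from *Psmb9* (chr17:34181987-34187764, minus strand) over *Tap1* (chr17:34187553-34197225) and *Psmb8* (chr17:34197721-34201454) to *Tap2* (chr17:34203527-34216321). *B2m* lies at chr2:122147686-122153083 and *Nlrc5* at chr8:94434356-94527272, and where no strand is given a gene is on the plus strand.

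ATAC-seq marks open chromatin through a transposase that inserts sequencing adapters into accessible DNA. Thymocytes of 4 wild type C57BL/6J mice, 9 weeks old, were sorted by flow cytometry into DN (neither CD4 nor CD8), DP (both), SP4 (CD4 alone) and SP8 (CD8 alone) cells, which gave 16 libraries, 1 from each mouse and stage. The authors pooled the 4 mice of a stage before peak calling, so each stage is represented by 1 list, no value has a spread between mice, and no difference between stages could be tested.

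MHC class I molecules consist of a polymorphic heavy chain, such as those encoded by *H2-K1* and *H2-D1*, and the invariant light chain β2-microglobulin, encoded by *B2m*. Peptides cut by the proteasome, in which *Psmb8* and *Psmb9* encode catalytic subunits of the immunoproteasome, are carried into the endoplasmic reticulum by the transporter TAP1-TAP2 and loaded with the help of tapasin, encoded by *Tapbp*. The transactivator NLRC5 acts at class I promoters through factors bound to their X and Y boxes, and the same promoters carry sites for NF-κB and for interferon regulatory factors. In the thymus, class I molecules on epithelial cells select the CD8 lineage, and thymocytes display class I molecules themselves.

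The promoters of *H2-K1*, *B2m* and *Nlrc5* are shown first, since their start regions differ in the order of the stages, followed by 4 distal regions that carry stage differences. The *H2-K1* and *B2m* promoters were read from the RefSeq promoter table (GRCm38.p6), and the other sequences from the GRCm38 genome. The table also held *H2-D1*, *Tap1*, *Tapbp*, *Psmb8* and *Psmb9*, so it matched 7 of the 9 genes, with *Tap2* and *Nlrc5* unmatched. Capitals mark matches, on either strand, to any of 9 motifs. These were the X2 box (TGACGC or TGACGT), the Y box (ATTGG), an interferon regulatory factor (IRF) core (AANNGAAA), a kappa B site (GGNNTTNCC), a GAS site (TTCNNNGAA), the site of ETS factors (CCGGAAG), that of RUNX factors (TGTGGTT), the GC box (GGGCGG) and the core of the CTCF site (CCANNAGNG). None of the matches in these sequences overlapped a match of another motif.

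The *H2-K1* promoter (chr17:34000348-34000597, minus strand, read 5′ to 3′ up to the base before the start) carried 6 matches. The *B2m* promoter (chr2:122147437-122147685, plus strand) carried 3 matches. The *Nlrc5* promoter (chr8:94434106-94434355, plus strand, upstream of the GENCODE 5′ end) carried 0 matches.
H2-K1 promoter: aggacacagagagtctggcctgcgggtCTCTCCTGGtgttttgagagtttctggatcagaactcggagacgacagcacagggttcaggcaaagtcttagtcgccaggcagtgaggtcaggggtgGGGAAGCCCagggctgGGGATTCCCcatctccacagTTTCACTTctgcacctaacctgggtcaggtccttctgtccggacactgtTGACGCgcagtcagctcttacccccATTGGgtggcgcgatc
B2m promoter: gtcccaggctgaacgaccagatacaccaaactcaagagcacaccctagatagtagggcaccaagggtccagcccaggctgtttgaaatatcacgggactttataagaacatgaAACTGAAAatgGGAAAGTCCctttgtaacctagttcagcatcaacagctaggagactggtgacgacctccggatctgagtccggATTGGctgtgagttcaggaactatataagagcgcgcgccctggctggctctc
Nlrc5 promoter: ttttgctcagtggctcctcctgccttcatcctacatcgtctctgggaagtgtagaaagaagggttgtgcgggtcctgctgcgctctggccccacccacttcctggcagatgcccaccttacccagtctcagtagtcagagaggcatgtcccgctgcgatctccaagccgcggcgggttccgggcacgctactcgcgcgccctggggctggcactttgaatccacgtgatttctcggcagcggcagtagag

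From left to right, the *H2-K1* promoter held a CTCF core, a pair of kappa B matches, the IRF core, the X2 box and the Y box. The kappa B matches began 126 and 110 bases before the start, the IRF core 90, the X2 box 41 and the Y box 16. In *B2m*, the IRF core began 136 bases before the start, the kappa B match 125 and the Y box 52. Among 31396 RefSeq promoters, 21.2% held the IRF core in the same 250 bases, 13.6% the kappa B site, 12.0% the X2 box, 33.7% the Y box and 15.0% the CTCF core. *H2-D1* held the same order from kappa B to Y box, with kappa B matches 186 and 170 bases before its RefSeq start, an IRF core at 150, an X2 box at 101 and Y boxes at 76 and 53. Its IRF core is shown within 30 bases (chr17:35262933-35262962, plus strand), since GENCODE places this stretch in the 5′ UTR of a longer transcript.
H2-D1 IRF core: catctcctcagTTTCACTTctgcacctaac

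The 4 distal windows are 200 bases around the summit of the highest peak, all on the plus strand. The first lies 9.8 kb into *Nlrc5*, in an intron (chr8:94444141-94444340), and was called at DN, SP4 and SP8 but not at DP. The next lies 6.3 kb upstream of *Nlrc5*, in an exon of the noncoding RNA *9330175E14Rik* (chr8:94427904-94428103), and was called at SP4 and SP8 alone. The window 12.0 kb downstream of the *B2m* start, in an intron of *Patl2* (chr2:122159701-122159900), and that 7.2 kb into *Tap2*, in an intron (chr17:34210628-34210827), were called at all 4 stages and were highest at DN and DP.
Nlrc5 intron 9.8 kb: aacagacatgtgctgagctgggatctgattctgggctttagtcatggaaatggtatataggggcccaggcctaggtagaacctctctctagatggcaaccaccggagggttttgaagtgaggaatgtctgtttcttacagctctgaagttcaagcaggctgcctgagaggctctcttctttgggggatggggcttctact
Nlrc5 upstream 6.3 kb: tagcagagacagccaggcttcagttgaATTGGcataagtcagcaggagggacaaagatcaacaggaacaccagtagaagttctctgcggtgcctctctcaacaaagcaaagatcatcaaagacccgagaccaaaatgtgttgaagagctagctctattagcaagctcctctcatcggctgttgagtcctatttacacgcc
B2m downstream 12.0 kb: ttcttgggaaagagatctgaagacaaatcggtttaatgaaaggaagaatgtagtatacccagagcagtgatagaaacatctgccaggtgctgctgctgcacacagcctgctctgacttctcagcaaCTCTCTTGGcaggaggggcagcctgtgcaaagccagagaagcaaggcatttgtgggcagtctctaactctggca
Tap2 intron 7.2 kb: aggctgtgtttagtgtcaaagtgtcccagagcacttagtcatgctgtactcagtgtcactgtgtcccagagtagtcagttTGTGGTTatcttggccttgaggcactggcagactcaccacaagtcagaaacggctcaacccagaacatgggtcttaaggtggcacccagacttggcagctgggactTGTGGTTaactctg

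The *Tap2* window held the RUNX heptamer at 2 places, a word present in 10.3% of the 185978 windows of the same length around region summits. The upstream *Nlrc5* window held 1 Y box (18.4% of windows) and the *B2m* window 1 CTCF core (17.4%). The *Nlrc5* intron window held 0 matches of these letters.

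The regions were mostly low for their lists, and the taller ones were mostly shared by all stages. The median peak of the windows lay at percentile 41.2 of the DN list, 35.4 of the DP list, 36.1 of the SP4 list and 31.9 of the SP8 list, where the percentile is the share of all peaks of that stage with a lower fold enrichment. Fold enrichment, the height used throughout, is the pileup of reads at the summit of a peak over the local background. Of the 93 regions, 40 (43.0%) were called at all 4 stages, beside 34.1% of all regions, and 28 (30.1%) at a single stage, beside 38.5%. The 40 shared regions had a median width of 465 bp and a median fold enrichment of 8.32 at their highest stage. The 28 single-stage regions had medians of 128.5 bp and 3.20, and at most 7.36.

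DP had the fewest peaks in these windows, although the SP8 list as a whole was shorter. A stage without a call had no peak at the 5% false discovery rate used, which does not show closed chromatin. A total of 14 regions (15.1%) were called at SP4 and SP8 but not at DP, beside 7.87% of all regions. The share was smaller in gene bodies alone (9.80%) and within 50 kb (11.2%). Of the 14 regions, 6 were also called at DN (6.45% of the 93 regions, beside 4.05% of all regions) and 8 were not (8.60%, beside 3.82%). Regions called at DN alone were fewer than in the series as a whole, with 8 of 93 (8.60%) beside 21.7% of all regions. Those called at DP alone numbered 3 (3.23%, beside 5.17%), at SP4 alone 8 (8.60%, beside 7.39%) and at SP8 alone 9 (9.68%, beside 4.21%). Of the 22 regions over a transcript start of any gene, 19 (86.4%) were called at all 4 stages, beside 78.8% of all regions over a transcript start. The share was 7 of 36 (19.4%) for intronic regions, beside 28.0%, 5 of 16 (31.2%) for other exonic regions, beside 33.5%, and 9 of 19 (47.4%) for intergenic regions, beside 29.99%. Of the 36 intronic regions, 18 were called at 1 stage (50%, beside 42.1% of all intronic regions) and 8 at SP4 and SP8 but not at DP, beside 9.13%.

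Each gene had an open region over its GENCODE 5′ end at DN, SP4 and SP8, and 8 of 9 genes had one at DP. The exception was *Tap2*. Over all 20807 protein-coding genes of chromosomes 1 to 19, the share with such a region was 55.4% at DN and 53.0% at DP, and 51.9% at SP4 and 51.9% at SP8, and 50.1% had one called at all 4 stages. *Tap1* and *Psmb9*, which are transcribed away from each other, share 1 start region, so the 9 genes have 8 distinct start regions.

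**Figure D1:**
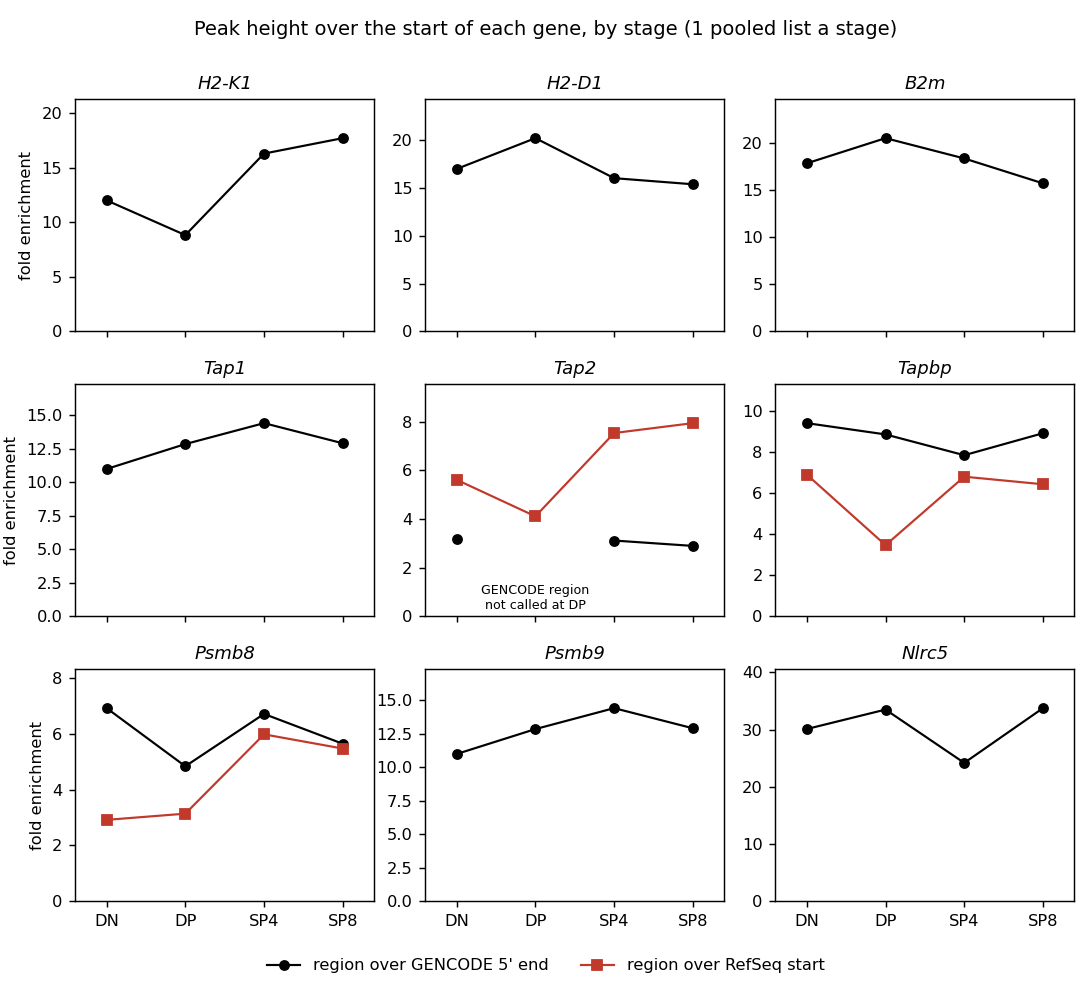
Fold enrichment (vertical axis, linear, from 0) of the highest peak in the region over the start of each gene, at the 4 stages (horizontal axis). Each point is 1 pooled list. Black circles use the GENCODE 5′ end and red squares the RefSeq start where it falls in another region. The *H2-K1* line and the red lines of *Tap2*, *Tapbp* and *Psmb8* lie higher at SP4 and SP8 than at DP, whereas those of *H2-D1* and *B2m* have their highest point at DP.

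*H2-K1* and *H2-D1*, the classical class I heavy chain genes, differed in the order of the stages. The start region of *H2-K1* (chr17:33999785-34000846, 1062 bp) had a fold enrichment of 12.0 at DN and 8.81 at DP, against 16.3 at SP4 and 17.7 at SP8. It was therefore lowest at DP and highest in both mature stages. In percentiles it stood at 81.7, 70.6, 87.5 and 88.7. At DP the region consisted of 3 separate peaks, as the map of the class I genes shows, and *H2-K1* had a further DP-only region 0.9 kb downstream of the start at 5.08.

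The start region of *H2-D1* (chr17:35262602-35263477, 876 bp) had a fold enrichment of 17.0 at DN and 20.2 at DP, and 16.0 at SP4 and 15.4 at SP8. It was highest at DP, where *H2-K1* was lowest. Differences between stages are given as log2 ratios of fold enrichment centred on the median over all regions called at both stages, and a region was called higher or lower past 1.5 fold. From DP, *H2-K1* was higher by 0.76 at SP4 and by 0.88 at SP8, and both passed 1.5 fold. A lower value was found at 98.1% of 9546 start regions for SP4 and at 98.8% of 9564 for SP8. *H2-D1* stood at -0.45 and -0.52, short of 1.5 fold.

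*H2-K1* and *H2-D1* are close relatives, and the authors kept uniquely mapped reads alone, so sequence shared between them could lower their counts. Of the 75-base words of the *H2-K1* start region, 98.9% occurred once in the mm10 assembly, and for the *H2-D1* start region all did. Exact copies alone were counted, so reads lost to near copies through low mapping quality were not assessed. Over all 93 regions, 90 consisted of single-copy words throughout. The 1 region under 90% was a weak peak 1.4 kb into *H2-D1* (79.7%), called at DN, DP and SP4.

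*B2m*, on chromosome 2 and annotated inside the longer gene *Patl2*, had the same order of DP over DN as *H2-D1*. Its start region (chr2:122147387-122148211, 825 bp) had a fold enrichment of 17.8 at DN and 20.5 at DP, against 18.3 at SP4 and 15.7 at SP8. The highest stage was DP and the lowest SP8, with centred differences from DP of -0.28 at SP4 and -0.51 at SP8. DP stood above DN by 0.31, and 65.9% of 9864 start regions had a lower value. The genes with the most similar heights over the 4 stages, by Euclidean distance over the 4 log2 fold enrichments among 10430 genes with a start region called at all 4 stages, were *Fnta* (0.098), *Tbl2* (0.14) and *Setd5* (0.15) for *B2m*. For *H2-K1* they were *Stx6* (0.14), *Asrgl1* (0.19) and *Gna11* (0.21).

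**Figure D2:**
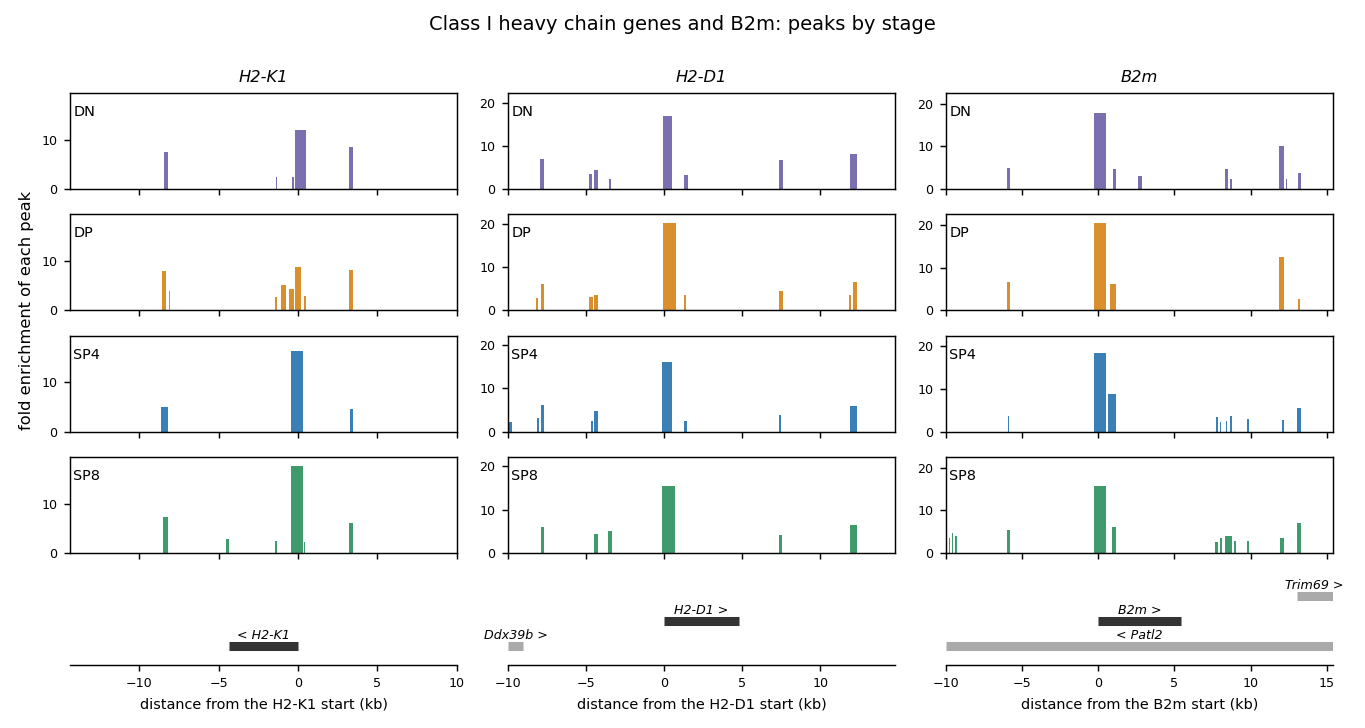
Peaks within 10 kb of *H2-K1*, *H2-D1* and *B2m* at the 4 stages. The horizontal axis gives the distance in kb from the GENCODE 5′ end of each gene, positive toward higher chromosome positions, and the vertical axis the fold enrichment, from 0. Bars span the peaks, 1 pooled list a row, and lines at the bottom show protein-coding genes with arrows for their direction, members in black. The peak at 12.0 kb in the *B2m* panel is tall at DN (10.0) and DP (12.5) and low at SP4 (2.72) and SP8 (3.54).

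Regions away from the starts of these genes differed in other ways. Downstream of *B2m*, the region at 12.0 kb (chr2:122159541-122159910, 370 bp) had a fold enrichment of 10.0 at DN and 12.5 at DP, and 2.72 at SP4 and 3.54 at SP8. The mature stages stood at -2.32 (SP4) and -1.95 (SP8) against DP on the centred log2 scale, the largest decreases in the windows in both comparisons. The neighbouring region at 13.2 kb, over a transcript start of *Trim69*, ran the other way, at 3.68, 2.71, 5.51 and 6.92. Between 7.8 and 9.8 kb lay a group of weak regions, 3 called at SP4 and SP8 alone, with fold enrichments from 2.32 to 3.58. A further 3 regions 9.3 to 9.8 kb upstream of *B2m* were called at SP8 alone, at 3.93, 4.58 and 3.49, and are 100 to 132 bp wide.

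Around *H2-K1*, the regions 3.3 kb upstream and 8.4 kb downstream of the start were lower at SP4 than at DP while the start was higher. The upstream region (chr17:34003530-34003796) had a fold enrichment of 8.55 at DN and 8.12 at DP, against 4.61 at SP4 and 6.08 at SP8. The downstream region (chr17:33991735-33992153) had 7.44, 7.95, 4.90 and 7.19. Both passed 1.5 fold below DP at SP4 (-0.94 and -0.82) and neither did at SP8 (-0.54 and -0.27). In the *H2-D1* window, 0 of the 10 regions passed 1.5 fold in any of the comparisons made.

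*Tap1*, a TAP subunit gene, and *Psmb9* start back to back in 1 region (chr17:34186858-34187954, 1097 bp). Its fold enrichment was 11.0 at DN and 12.9 at DP, and 14.4 at SP4 and 12.9 at SP8. The values differ little, with centred differences of 0.34 for DP against DN, 0.05 for SP4 against DP and -0.12 for SP8 against DP. A Y box lay 222 bases before the RefSeq start of *Tap1* and a GC box 176 bases before it, and the region also held an IRF core. A region over an exon of *Tap1*, 1.0 kb upstream of *Psmb8* (chr17:34196329-34197039, 711 bp), had a fold enrichment of 18.9 at DN and 18.2 at DP, against 12.2 at SP4 and 15.1 at SP8. It was lower at SP4 than at DP, at -0.70.

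For *Tap2*, *Tapbp* and *Psmb8*, the choice of the gene start decided the region. The GENCODE 5′ end of each belongs to a longer transcript that begins upstream of the start of the RefSeq curated transcripts, and the RefSeq start was added after the values had been seen. Over its GENCODE 5′ end (chr17:34203498-34203713), *Tap2* had a weak region at DN (3.19), SP4 (3.11) and SP8 (2.89) and no call at DP. Over its RefSeq start (chr17:34204350-34204610, 261 bp) it had a fold enrichment of 5.61 at DN and 4.11 at DP, and 7.53 at SP4 and 7.93 at SP8.

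*Psmb8*, at its RefSeq start, was low at DN and DP and higher at SP4 and SP8. That region (chr17:34198031-34198440, 410 bp) had a fold enrichment of 2.92 at DN and 3.14 at DP, against 5.98 at SP4 and 5.47 at SP8. It stood at percentile 6.39 of the DN list and 50.7 of the SP4 list. The region over the GENCODE 5′ end (chr17:34197562-34197864) had 6.92, 4.84, 6.71 and 5.64, with DP lowest.

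*Tapbp* has its GENCODE 5′ end at the start of the neighbouring gene *Zbtb22*, a zinc finger gene, so that region (chr17:33915630-33916242) cannot be assigned to 1 of them. Its fold enrichment was 9.41 at DN and 8.86 at DP, and 7.85 at SP4 and 8.92 at SP8, with little change. The region over the RefSeq start, 3.7 kb further on (chr17:33919371-33919780, 410 bp), had 6.90, 3.47, 6.80 and 6.43. It was lower at DP than at DN (-0.88) and higher again at SP4 by 0.85 and at SP8 by 0.76.

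**Figure D3:**
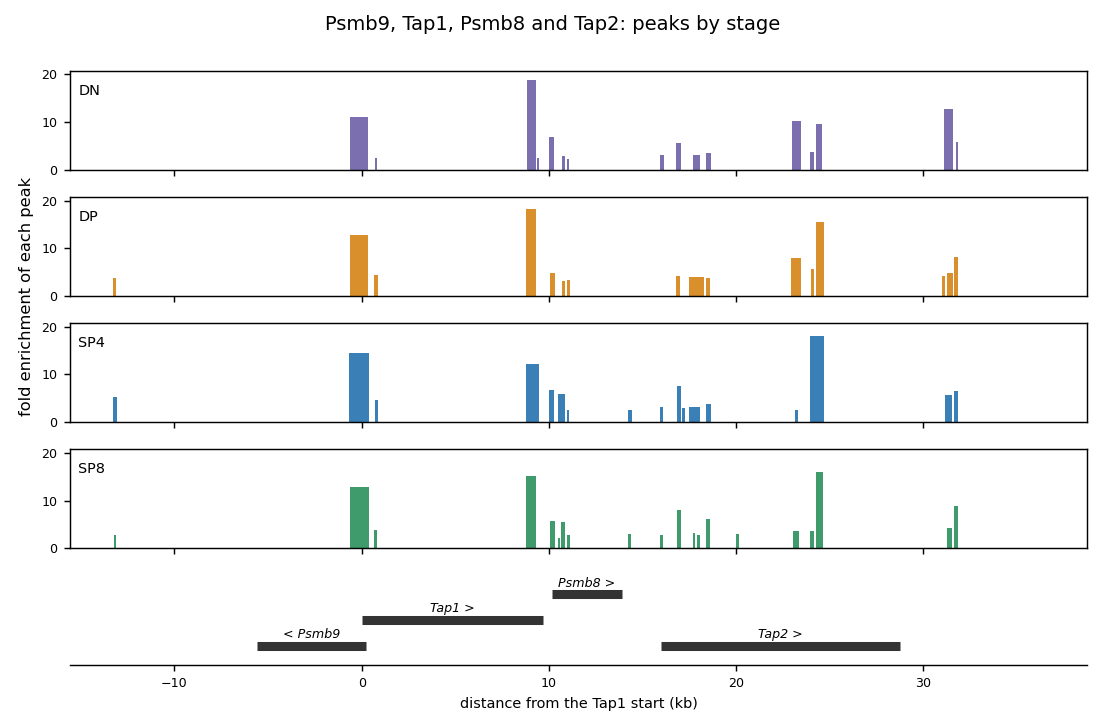
Peaks over *Psmb9*, *Tap1*, *Psmb8* and *Tap2* at the 4 stages. The horizontal axis is the distance in kb from the *Tap1* start, positive toward higher chromosome positions, and the vertical axis the fold enrichment, from 0, with 1 pooled list a row. Black lines mark the genes. The shared start at 0 changes little, and the region 7.2 kb into *Tap2*, inside the right-hand black line, is tall at DN (10.2) and DP (7.89) and low at SP4 (2.55) and SP8 (3.69).

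Inside *Tap2*, a pair of regions about 1 kb apart changed between different stages. The intronic region at 7.2 kb (chr17:34210512-34211016, 505 bp), whose sequence with the RUNX matches is given above, had a fold enrichment of 10.2 at DN and 7.89 at DP, against 2.55 at SP4 and 3.69 at SP8. Against DP it stood at -1.75 at SP4 and at -1.22 at SP8, and DP against DN stood at -0.26, short of 1.5 fold. The region at 8.3 kb (chr17:34211483-34212239, 757 bp), over an exon, had 9.72, 15.5, 18.1 and 15.9, lowest at DN, and was higher at DP than at DN by 0.79. From DP it changed little, at 0.10 at SP4 and -0.10 at SP8. Past the 3′ end of *Tap2*, the region at 15.3 kb (chr17:34218532-34219133) was highest at DN, with 12.7, 4.89, 5.69 and 4.37.

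**Figure D4:**
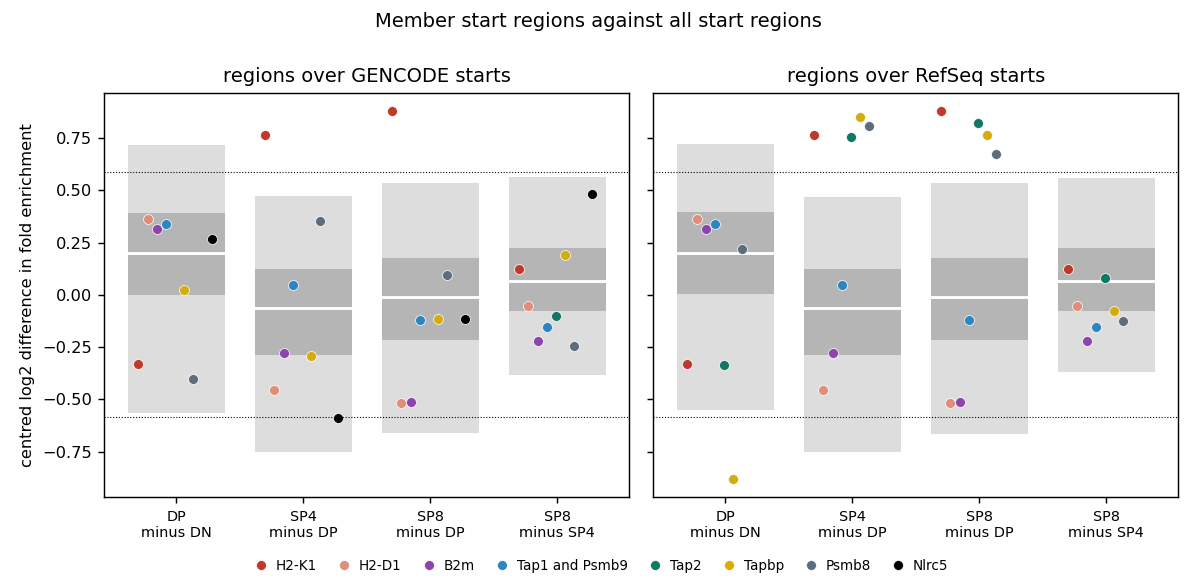
Centred log2 difference in fold enrichment (vertical axis) for the comparisons of stages (horizontal axis), with member start regions as coloured points. Grey bands span the 5th to 95th (light) and 25th to 75th (dark) percentiles of all start regions, the white line is their median, and dotted lines mark 1.5 fold. With GENCODE 5′ ends (left), *H2-K1* alone lies above 1.5 fold at SP4 and SP8 against DP, and with RefSeq starts (right) *Tap2*, *Tapbp* and *Psmb8* lie there too, at 0.67 to 0.88 with *H2-K1* at SP8.

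Counted over the start regions, the 2 definitions gave different numbers. With GENCODE 5′ ends, 1 of 7 start regions called at both stages was higher at SP4 than at DP (*H2-K1*), beside 3.33% of all start regions, and 1 of 7 was lower (*Nlrc5*), beside 8.97%. At SP8, 1 of 7 was higher than at DP (*H2-K1*), beside 3.90%, and 0 were lower, beside 6.47%. With RefSeq starts, 4 of 7 were higher at SP4 than at DP, beside 3.15% of all RefSeq start regions, and the same 4 (*H2-K1*, *Tap2*, *Tapbp* and *Psmb8*) at SP8, beside 3.84%. None of the 7 was lower, beside 9.03% at SP4 and 6.54% at SP8. The comparisons with SP4 and SP8 share the DP list, so the repeat at SP8 is not independent.

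From DN to DP, 0 of 7 start regions with GENCODE 5′ ends were higher or lower, beside 10.2% and 4.77% of all start regions. With RefSeq starts, 0 of 7 were higher (10.6% of all RefSeq start regions) and 1 was lower (*Tapbp*, 4.60%). Between SP4 and SP8, 0 of 8 start regions with GENCODE 5′ ends were higher at SP8 (4.58%) or lower (1.94%), and 0 of 7 with RefSeq starts were higher (4.41%) or lower (1.79%).

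Over all regions of the windows, differences went in both directions. Of 45 regions called at both DP and SP4, 7 were higher at SP4 (15.6%), beside 15.7% of all regions, and 7 were lower, beside 14.7%. Of 43 called at both DP and SP8, 7 were higher at SP8, beside 15.0%, and 2 were lower (*Tap2* at 7.2 kb and *B2m* at 12.0 kb), beside 15.4%. Of 46 called at both DN and DP, 5 were higher at DP, beside 10.9%, and 6 were lower, beside 17.8%. Of 55 called at both SP4 and SP8, 3 were higher at SP8, beside 9.80%, and 1 was lower, beside 12.1%. The shares for SP4 against DP lie near the background, and the share lower at SP8 than at DP lies under it.

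*Nlrc5* had the tallest start region of the 9 genes. Its start region (chr8:94433836-94434526, 691 bp), which also covers starts of the noncoding RNA *9330175E14Rik*, had a fold enrichment of 30.1 at DN and 33.5 at DP, and 24.2 at SP4 and 33.8 at SP8. It stood at percentile 96.3 or above in every list. SP4 was the lowest stage, at -0.59 against DP, just past 1.5 fold, and the value fell short of 1.5 fold without centring and with centring on start regions. The start of the RefSeq curated transcript, further into the gene, lay in 0 regions. The genes with the most similar heights were *Zfp280b* (a distance of 0.15), *Npl* (0.24) and *Rsad2* (0.24), the last of them encoding the antiviral protein viperin.

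**Figure D5:**
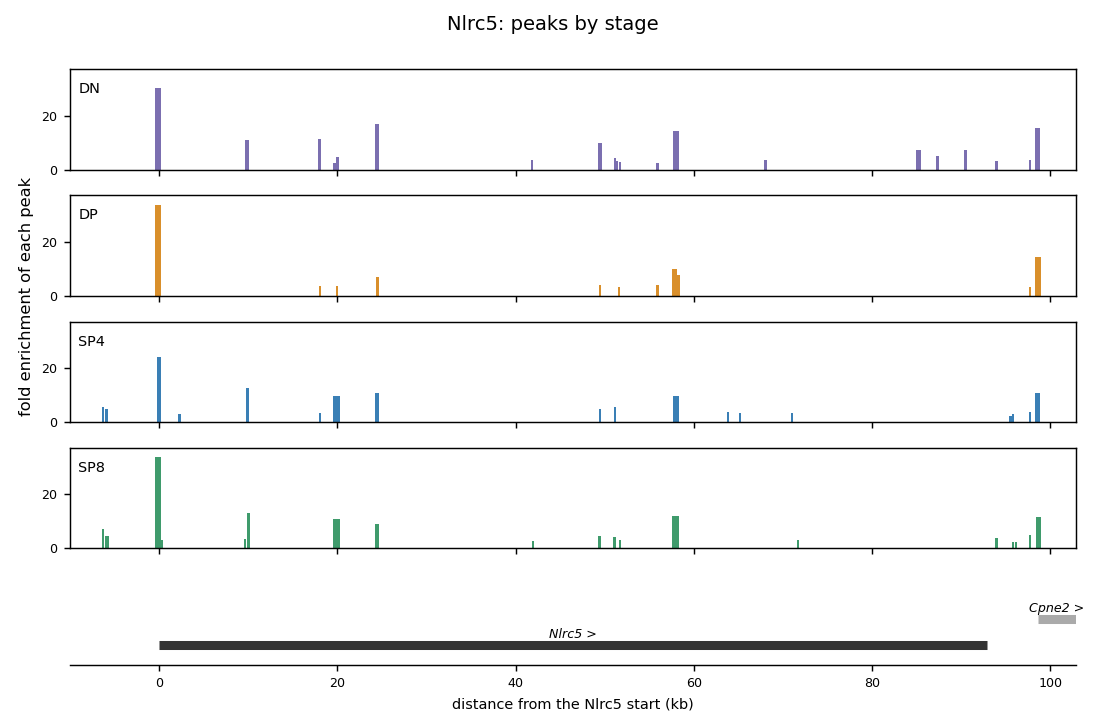
Peaks over *Nlrc5* and 10 kb on either side at the 4 stages. The horizontal axis is the distance in kb from the GENCODE 5′ end, and the vertical axis the fold enrichment, from 0, with 1 pooled list a row. The peak at 9.8 kb is present at DN (11.1), SP4 (12.8) and SP8 (12.9) and missing at DP, and the peaks from 85.2 to 90.4 kb are present at DN alone.

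The *Nlrc5* window, the longest at 112.9 kb, held 30 regions (2.66 per 10 kb, against 2.88 to 5.91 in the other blocks). Of the 30, 7 were shared by every stage, beside 34.1% of all regions, and 13 were called at 1 stage, beside 38.5%. At DN alone 5 of 30 were called, a share under the 21.7% of all regions. At SP4 alone 5 were called, beside 7.39% of all regions, and at SP8 alone 3, beside 4.21%. The strongest region without a DP call lay 9.8 kb into the gene (chr8:94443898-94444493, 596 bp), at 11.1 for DN, 12.8 for SP4 and 12.9 for SP8. It stood at percentiles 79.0, 80.3 and 79.0 of these lists. Its neighbour at 19.9 kb (chr8:94453866-94454651, 786 bp) was called at all 4 stages, with 4.90 at DN and 3.74 at DP, against 9.72 at SP4 and 10.8 at SP8, so it was lowest at DP as well. It was higher than DP by 1.26 at SP4 and 1.40 at SP8.

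A second set of *Nlrc5* regions was tallest at DN. The region at 24.5 kb had a fold enrichment of 16.8 at DN and 7.02 at DP, and 10.7 at SP4 and 8.98 at SP8. The region at 49.5 kb had 9.88, 4.03, 4.79 and 4.51, and that at 18.0 kb had 11.6, 3.74 and 3.45 with no call at SP8. All 3 were lower at DP than at DN, with centred differences of -1.15, -1.18 and -1.52. Near the 3′ end, regions at 85.2, 87.4 and 90.4 kb were called at DN alone, with fold enrichments of 7.25, 5.02 and 7.36. The largest of them stood at percentile 63.6 of the DN list.

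A pair of regions upstream of *Nlrc5* was called at the mature stages alone. The region at 6.3 kb (chr8:94427890-94428172, 283 bp) had 5.63 at SP4 and 7.12 at SP8, and that at 5.9 kb (chr8:94428244-94428680, 437 bp) had 4.87 and 4.55. These were the tallest of the 8 regions of the windows called at SP4 and SP8 alone, and the first stood at percentile 56.5 of the SP8 list.

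The same motifs were searched over whole start regions. Of the 8 distinct GENCODE start regions, 6 held the IRF core, beside 35.2% of 10667 start regions, and with RefSeq starts 7 of 7 did. The shares over all genes were read by GENCODE 5′ end alone, so the RefSeq counts have no background of their own. In 300 bp around the GENCODE 5′ end, 4 of 9 genes held the IRF core (44.4%), beside 23.2% of 20807 genes, and around the RefSeq start 4 of 8 did. The X2 box was found in 4 of 8 (*H2-K1*, *H2-D1*, *Psmb8* and *Nlrc5*), beside 38.1%, in 2 of 7 with RefSeq starts and in 2 of 9 of the 300 bp windows, beside 16.2%. The Y box was found in 5 of 8, beside 56.9%, and in 4 of 7 with RefSeq starts. In the 300 bp windows it was found in 4 of 9, beside 38.6%, and in 6 of 8 with RefSeq starts. The kappa B site was found in 3 of 8 (*H2-K1*, *H2-D1* and *B2m*), beside 40.4%, and the GAS site in 3 of 8, beside 15.1%. The ETS site was found in 2 of 8 (28.4%), the GC box in 5 of 8 (81.7%), the CTCF core in 6 of 8 (43.8%) and the RUNX heptamer in 0 of 8 (10.3%). A match is a run of letters and does not show that a factor was bound.

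Lists of related genes were read in the same way, by GENCODE 5′ end. Of all protein-coding genes, 50.1% had a start region at all 4 stages by that end. The RefSeq start was not read for the lists, so a gene without a call may have a region over another start. Of 15 other class I and peptide loading genes, 13 had a start region at all 4 stages, *H2-Q10* lacking the call at SP8 and *H2-Q6* at DP. Their median centred difference was 0.01 for SP4 and 0.27 for SP8 against DP, beside -0.06 and -0.01 over all protein-coding genes, and *H2-Q7* alone passed 1.5 fold (1.22 and 1.03). The *H2-Q* genes are near copies of each other, so reads may be split or lost between them. Of 8 other proteasome genes, 7 were called at all 4 stages, *Psmb11*, the thymic epithelial subunit, at none, and *Psmb10* (0.59) and *Psmb6* (0.60) were higher at SP4 than at DP. The median of the 7 was 0.26 at SP4 and 0.24 at SP8 against DP. The examples that passed 1.5 fold were chosen after their values were seen. Among all protein-coding genes called at both stages, 338 of 10596 were higher at SP4 than at DP and 897 were lower. At SP8, 395 of 10616 were higher than at DP and 639 were lower.

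Of 21 regulators of the pathway, 18 were called at all 4 stages, beside 50.1% of all genes. *Irf9* and *Nfyc* were called at none and *Ifngr2* at DP alone, and the median was 0.02 for SP4 and 0.12 for SP8 against DP. Of 12 MHC class II genes, 9 were called at all 4 stages, with a median of 0.37 for SP4 and 0.23 for SP8 against DP, and *H2-Eb2* (1.08) and *H2-Ob* (0.91) were higher at SP4 than at DP. *Ciita* was called at none, *Ctss* at SP4 and SP8, and *Cd74*, the invariant chain, at DN, SP4 and SP8.

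Of 12 T lineage genes, 9 were called at all 4 stages. By GENCODE 5′ end, *Bcl11b* and *Tcf7* were called at none and *Ptprc* at DP, SP4 and SP8, and their RefSeq starts were not read. The median of the list was -0.18 for SP4 and 0.05 for SP8 against DP. *Cd8a* (-0.84), *Thy1* (-0.78) and *Lck* (-0.71) were lower at SP4 than at DP, and *Cd8a* was higher at SP8 than at DP (0.60). Of the markers of other cell types, 2 of 8 B cell, 2 of 8 dendritic cell, 1 of 8 myeloid and 4 of 8 thymic epithelial genes were called at all 4 stages, beside 50.1% of all genes. Those called were *Ebf1* and *Blk* (B cell), *Flt3* and *Irf8* (dendritic cell) and *Itgam* (myeloid). The thymic epithelial genes called were *Epcam*, *Ctsl*, *Ly75* and *Aire*. At DP, *Aire* stood at percentile 96.5 of the list and *Flt3* at 67.6. Within 1000 bp of the start the myeloid count was 4. At DN, 4 of 8 myeloid genes had a call, beside 55.4% of all genes. Of these, *Lyz2* and *Csf3r* were called at DN alone and *Adgre1* at DN and DP, whereas *Itgam* was called at every stage, with fold enrichments of 6.88 at DN and 5.08 at DP, against 16.0 at SP4 and 19.7 at SP8. *Itgax*, a dendritic cell gene, was called at DN alone. *Cd22* was called at SP4 and SP8. The genes with 0 calls at any stage included *Cd79a*, *Cd79b*, *Ms4a1* and *Pax5* (B cell), *Zbtb46*, *Xcr1*, *Clec9a*, *Siglech* and *Batf3* (dendritic cell), *Csf1r*, *Cd14*, *Spi1* and *Fcgr3* (myeloid), and *Krt5*, *Krt8*, *Foxn1* and *Psmb11* (thymic epithelium). Whether other cells in the sorted DN fraction contributed to the DN-only regions of *Nlrc5* was not tested. Peaks called on pooled cells cannot tell fewer open cells from less accessible chromatin in every cell.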

How the data were processed

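ATAC-seq was performed on 16 libraries, 4 mice at each of 4 thymocyte stages, with reads of 75 bp. The authors aligned reads with BWA to mm10, discarded duplicates (Picard) and reads that were multiply mapped, improperly paired or of low mapping quality, down-sampled the libraries to the median depth, pooled the mice of a stage and called peaks with MACS2 at a 5% false discovery rate. MACS2 and mm10 also stand in the submitters' processing notes, without a MACS2 version. Each deposited list gives for every peak a score, the fold enrichment at the summit, a −log10 p-value, a −log10 q-value and the summit offset. The deposited score and −log10 p-value were not used further. Fold enrichment (a fold over local background) was the measure of height, and the deposited −log10 q-value served in alternatives. Pooling removes the spread between mice, down-sampling discards reads of the deeper libraries, and unique mapping lowers peaks in repeated sequence. The lists hold no read counts, so the depth behind each peak is unknown and no interval could be given.

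Peaks of chromosomes 1 to 19 were merged where they shared at least 1 bp. A start region overlapped the GENCODE M21 5′ end or, as an addition chosen after seeing the data, the start of the RefSeq curated transcripts. The value of a region at a stage was its highest peak, and a difference was called past 1.5 fold after centring. The settings that were varied are given in the closing section. No test was run, since each stage has 1 list. Genes named were the 9 members, genes starting in their windows, the 3 genes nearest in pattern for *H2-K1*, *B2m* and *Nlrc5*, and genes of the lists not called at every stage, of which 1 is not reported here. *Patl2*, which holds a region of the *B2m* window, *Itgam* and the genes of the lists named for passing 1.5 fold fall outside this rule and were named after their values were seen. The members and lists were chosen with earlier results of these data known. Analyses used Python 3.11.15, numpy 2.4.6, pandas 2.3.3, numba 0.67.0 and matplotlib 3.10.9. The code was run on simulated lists without noise in height, with well separated sites and every change set past 1.5 fold. There, 20000 of 20000 sites received their true stages and 74 of 74 changed sites were recovered with 0 others called. Of the starts 500 of 500 were assigned, and 900 of 900 planted motifs were found. Such lists check the code and say nothing of the error of calls in the real lists.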

Additional observations from a re-analysis of the deposited data

How the results depend on the processing

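No paired analysis was possible because each list pools the 4 mice and no column carries a mouse, and leaving out each mouse in turn was not run for the same reason. Of the values recomputed under the alternative settings, 264 stayed within the margin of the reported value and 26 moved. The margin was 1.5 fold for counts and log2 values, and the 95% interval of the reported share for shares. Percentile differences were judged by sign, with small reversals let pass. For the few start regions the interval is wide. A change of centring shifted log2 values by at most 0.20, so it could not move them past the margin. Under the RefSeq start, chosen after seeing the data, 42 stayed and 9 moved. The start region differences past 1.5 fold were those of *H2-K1* at SP4 and SP8 and of *Nlrc5* at SP4, against DP, and none changed sign. With RefSeq starts none could, since *H2-K1* keeps its region and *Nlrc5* has none. Under a change of centring none could either, since the shift was too small. Among all start region differences, the sign changed in 12 of 132 log2 values under the alternative settings, which then lay between -0.23 and 0.33. It also changed in 6 of 29 with RefSeq starts, where another region is read. These include *Tapbp* at SP4 (-0.30 to 0.85) and SP8 (-0.12 to 0.76) against DP and at DP against DN (0.02 to -0.88), and *Psmb8* at DP against DN (-0.40 to 0.22). Peaks in the gene bodies alone numbered 45 (DN), 35 (DP), 36 (SP4) and 40 (SP8), and within 50 kb 181, 160, 167 and 173. Start regions higher at DP than at DN (0 as reported) numbered 4 by −log10 q-value and 1 by summed height, and lower ones (0) numbered 1 with centring on gene starts and 1 with RefSeq starts. Those higher at SP4 than at DP (1) and at SP8 than at DP (1) each numbered 4 with RefSeq starts. Those lower at SP4 than at DP (1) numbered 0 without centring, 0 with centring on gene starts, 2 by summed height and 0 with RefSeq starts. Those lower at SP8 than at DP (0) numbered 1 by −log10 q-value and 1 by summed height, as did those higher at SP8 than at SP4 (0). Within 1000 bp of the start, 4 myeloid genes had a region at all 4 stages in place of 1. The IRF core was found in 100% of RefSeq start regions and 44.4% of 300 bp windows in place of 75%, the X2 box in 28.6% and 22.2% in place of 50%, and the CTCF core in 33.3% of 300 bp windows in place of 75%, where the search covers fewer bases. With RefSeq starts, the CTCF core was found in 3 of 7 regions. The cause of the other moves was not tested. With 1 pooled list a stage, the error of a difference between stages could not be estimated.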
